A study of Oryza sativa with 11 samples.

Results

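The genes described here are the named cell cycle and DNA replication genes of rice, measured in root tips of salt-stressed and unstressed plants. They were taken as the genes whose symbol or synonym starts with CYCA, CYCB, CYCD, CYCU, CDK, MCM, PCNA, ORC, KRP, RNR, E2F, H2A or H2B. A gene entered only if at least 1 probe set of the array was assigned to it alone. This gave 50 genes on 66 probe sets, out of 17905 genes with such a probe set. No gene of the RNR, E2F, CYCU or H2A names matched, and 13 matching genes, among them CDKB1-1, CYCB1-5, ORC6 and KRP2, had no probe set of their own. The annotation gives the names as synonyms of numbered loci, and where a gene had several probe sets the one with the highest mean signal was used.

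In root tips, cells are made in the meristem and then leave the cycle to elongate. In plants, D-type cyclins with CDKA start the cycle by phosphorylating the retinoblastoma-related protein, which frees E2F factors to switch on replication genes. KRP proteins, named for their likeness to the animal inhibitor Kip, hold these kinases back. The origin recognition complex (ORC) then marks replication origins, the MCM2 to MCM7 helicase unwinds DNA there, PCNA clamps the polymerase to its template, and new H2B histones package the copies. A-type cyclins act from S phase into mitosis, and B-type cyclins and the plant-specific CDKB kinases act at mitosis, so transcripts of these genes mark dividing cells. Several other CDKs have their known work in transcription or in activating other kinases.

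The series holds 11 Affymetrix Rice Genome Arrays. FL478, a recombinant inbred line described as salt-tolerant, was measured under salt (3 arrays) and in control (3 arrays). IR29, described as salt-sensitive, was measured under salt (3 arrays) and in control (2 arrays). Per the study's methods, the salt was NaCl together with CaCl2. It was stepped up for 3 days to about 60 mM NaCl and 7.4 dS/m, against 1.1 dS/m in control. This level was then held for 5 days, and the last 2 cm of the roots were harvested on day 30 after germination. The sample labels describe hydroponic culture and the methods describe sand tanks. Each array is labelled as a biological replicate, and the sources used here do not say how many plants were pooled for it. FL478 and IR29 stand for tolerance and sensitivity as 1 line each, so that line and tolerance cannot be told apart.

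All values are linear signals that the authors scaled so that each array has a 2% trimmed mean of 500.1. Of the 50 genes, 48 had a mean signal above 52.8, the median over all probe sets. The exceptions were MCM8 and CYCB1-3. Changes are differences of log2(signal + 32), which shrinks those of dim genes towards 0, and each carries its standard error (SE) from 1 limma fit of all 11 arrays. A gene was called where the p-value, adjusted by Benjamini-Hochberg over all 57258 probe sets tested, was under 0.10. Signals of different genes are not compared, because probes differ in how well they bind. Markers of root tissue were checked. QHB, a transcription factor of the quiescent centre, had signals between 95.9 and 169.9, and OsCASP1, of the endodermal Casparian strip, between 3045.5 and 5228.4. The photosynthesis genes CAB2R and OsrbcS lay between 88.0 and 519.5. None of these markers was called in a salt comparison.

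Salt was set against control within each line, to see which transcripts respond in a tolerant and in a sensitive line. None of the 50 genes was called for salt in either genotype. In FL478, salt against control, 0 of 50 were called, beside 0.169% of all probe sets. In IR29, 0 of 50 were called, beside 0.00524% of all probe sets. Averaged over both genotypes, 0 of 50 were called, beside 0.547% of all. At an unadjusted p under 0.05, 3 genes passed in FL478, 1 in IR29 and 1 in the average. The corresponding shares of all probe sets were 8.97%, 6.18% and 10.3%, all above the shares of these genes. The 95% confidence interval of the salt effect lay within a 2-fold change either way for 48 of the 50 genes in FL478 and for 46 in IR29. It lay within a 1.5-fold change for 19 genes in FL478 and for 16 in IR29. Salt effects larger than 2-fold thus lay outside the interval for most of these genes, and smaller ones were not resolved with 2 or 3 arrays per group. Because these are whole root tips, fewer dividing cells and less RNA per cell cannot be told apart.

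The directions of the estimates were counted in each genotype. In FL478, 40 of the 50 genes had a higher mean under salt, with a median difference of 0.16, beside 54.8% of all 17905 named genes and their median of 0.03. In IR29, 25 of the 50 were higher, with a median of 0.00, beside 54.5% and 0.03. Genes that share a program are not independent, and no test was applied to these counts. Of the 50 genes, 20 were higher under salt in both genotypes, 20 were higher in FL478 and lower in IR29, 5 were lower in both, and 5 were lower in FL478 and higher in IR29. The test of the difference between the genotypes' salt effects called 0 of the 50 genes, beside 0.0% of all probe sets, and 2 of the 50 reached an unadjusted p under 0.05, beside 4.53% of all.

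**Figure D1:**
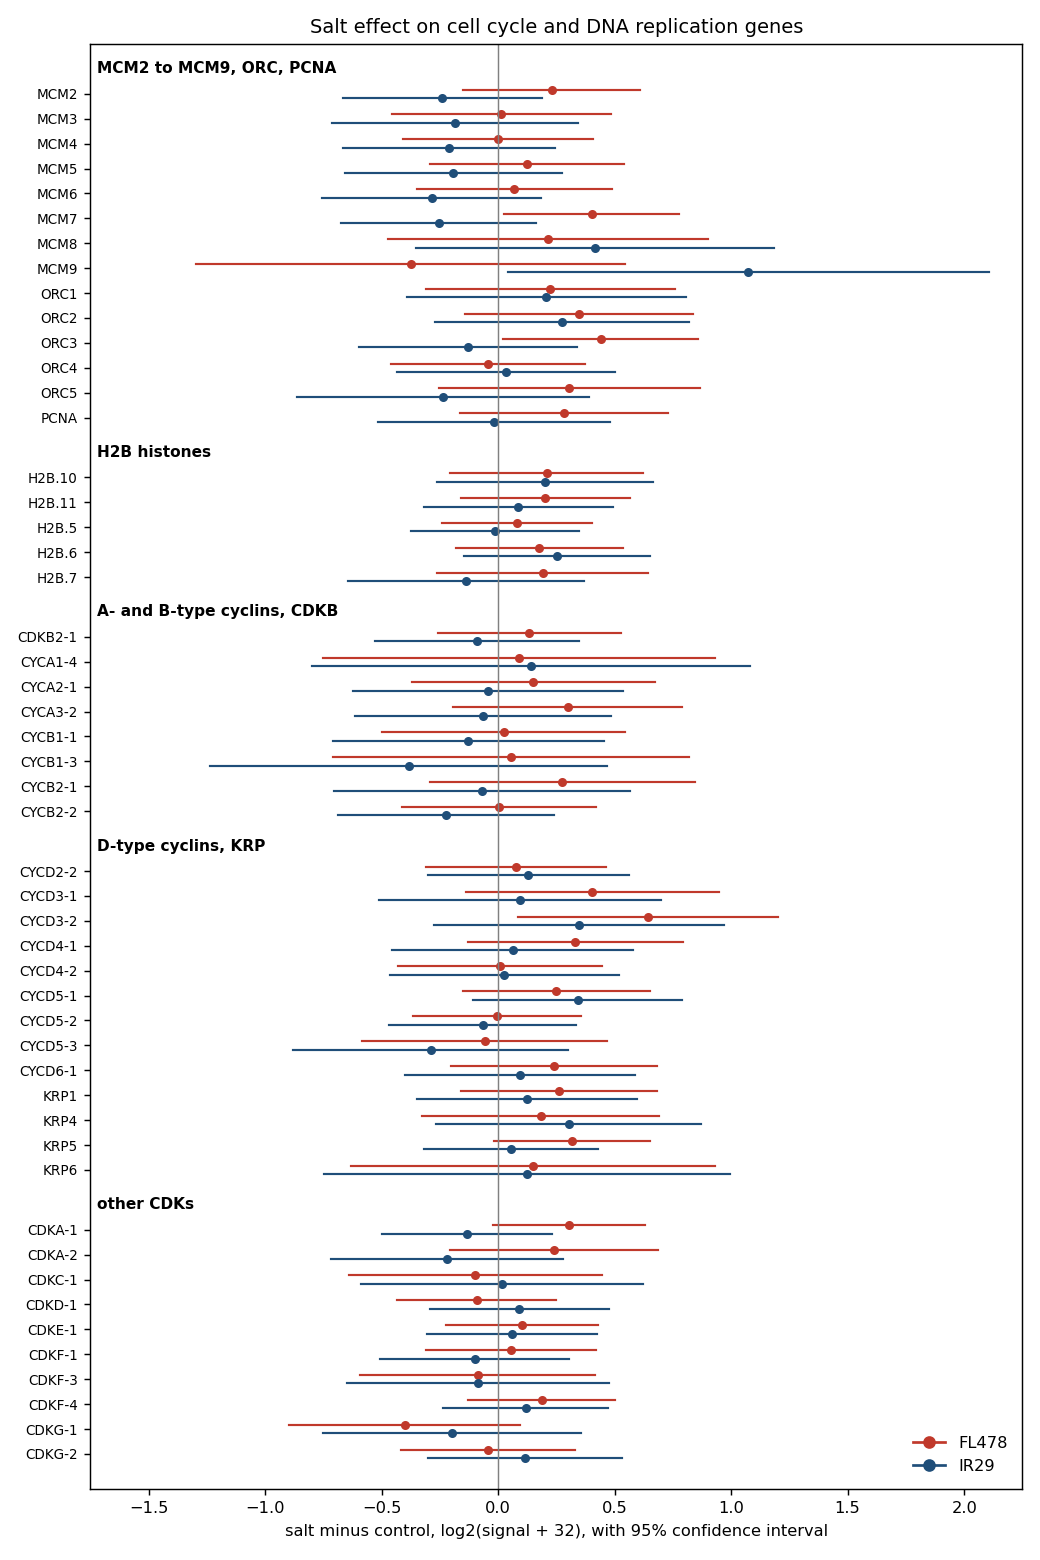
Salt minus control on the scale of log2(signal + 32) for each of the 50 genes, in FL478 (red, upper line) and IR29 (blue, lower line). Points are limma estimates and lines are 95% confidence intervals. FL478 points lie right of 0 for 40 genes and IR29 points for 25, and all intervals cross 0 but those of MCM7, ORC3 and CYCD3-2 in FL478 and MCM9 in IR29.

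The MCM2 to MCM7 helicase genes were well detected on every array. Under salt in FL478, 5 of the 6 had higher log2 means than in control, with a median difference of 0.10. MCM4 was level, with linear means of 751 under salt and 746 in control. In IR29 all 6 had lower means, with a median of -0.23. None of these differences was called. MCM2 had signals of 1084, 1079 and 1027 in FL478 salt arrays, against 888, 1035 and 798 in FL478 control arrays, a difference of 0.23 (SE 0.17, adjusted p = 0.76). In IR29 the MCM2 signals were 1065, 1067 and 961 under salt, against 1018 and 1464 in control, a difference of -0.24 (SE 0.19, adjusted p = 0.95). The groups overlapped in both genotypes, and in IR29 the second control array stood above all others. MCM3, MCM4, MCM5 and MCM6 differed between salt and control by -0.00 to 0.12 in FL478 and by -0.29 to -0.19 in IR29, and their groups overlapped in both genotypes.

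MCM7 was the single gene of the 50 whose arrays separated in opposite directions in the genotypes. In FL478 its signals were 494, 734 and 586 under salt, against 398, 477 and 463 in control. In IR29 they were 548, 604 and 530 under salt, against 690 and 660 in control. Salt arrays were thus all above control in FL478 and all below it in IR29, a pattern that 0.702% of all probe sets showed. The FL478 salt effect was 0.40 (SE 0.17, adjusted p = 0.519) and that of IR29 was -0.26 (SE 0.19, adjusted p = 0.941). The difference of these effects, FL478 minus IR29, was 0.66 (SE 0.25), with a 95% confidence interval of 0.09 to 1.22, and its adjusted p was 1.0. It ranged from 0.51 to 0.79 when each array was left out in turn.

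MCM8 and MCM9, relatives of the helicase that are known in animals for recombination repair, were less certain. MCM8 stayed at a signal of 49.8 or below on all arrays. The brightest MCM9 probe set gave 267, 61.0 and 254 in FL478 salt arrays, against 220, 278 and 190 in FL478 control arrays. In IR29 it gave 251, 281 and 449 under salt, against 112 and 158 in control, so that the IR29 groups did not overlap. Its salt effect in IR29 was 1.07 (SE 0.46, adjusted p = 0.788), the largest estimate of the 50 genes. Its difference between the genotypes was -1.45 (SE 0.62), and -0.90 without the second FL478 salt array. Another probe set of the same gene, with a mean signal of 227 against 229, gave 0.07 in FL478 and -0.05 in IR29, so that the probe sets disagree on MCM9.

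**Figure D2:**
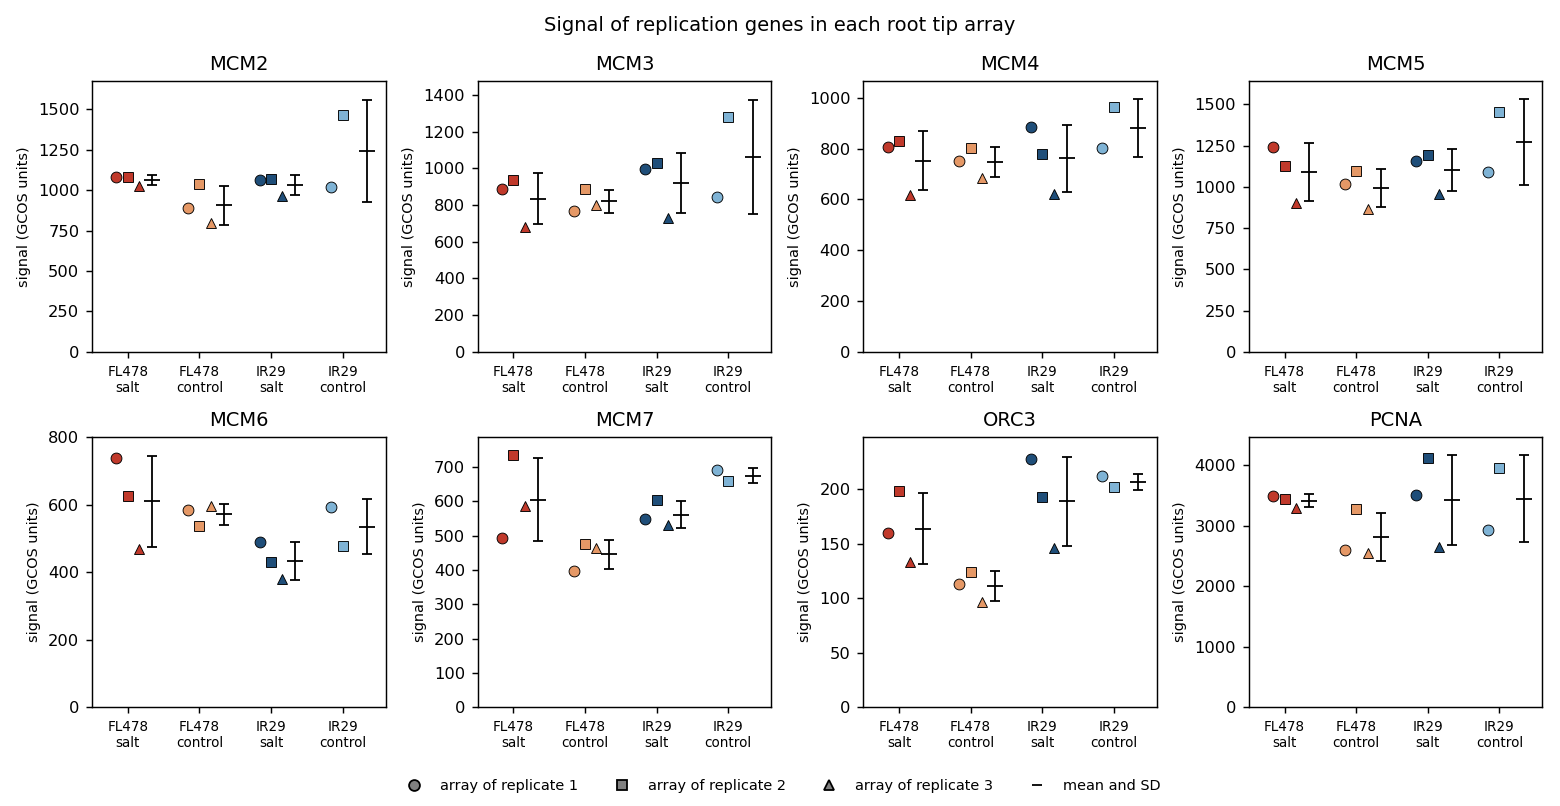
Linear signal of MCM2 to MCM7, ORC3 and PCNA on each array, by group, with the mean and SD of the group at its right. The symbols give the replicate number. For MCM7, salt arrays lie above control in FL478 and below it in IR29. For MCM2, MCM3, MCM4 and MCM5 the second IR29 control array is the highest of all 11.

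Among the origin recognition genes, ORC2 had higher means under salt in both genotypes. Its signals were 597, 783 and 779 in FL478 salt arrays, against 540, 694 and 455 in control. In IR29 they were 781, 995 and 620 under salt, against 597 and 693 in control. The average effect of 0.31 (SE 0.16) had an adjusted p of 0.58, and the groups overlapped in both genotypes. ORC3 had 160, 198 and 134 in FL478 salt arrays, against 113, 124 and 96.6 in FL478 control arrays, groups that did not overlap. Its FL478 salt effect was 0.44 (SE 0.19, adjusted p = 0.526) and its IR29 effect -0.13 (SE 0.21, adjusted p = 0.997). ORC1 differed by 0.22 and 0.21, and ORC4 by -0.04 and 0.03, in FL478 and IR29. ORC5 differed by 0.30 in FL478 and -0.24 in IR29, and the annotation also lists its locus under the synonym OsORC1.

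PCNA was measured at 3498, 3446 and 3290.5 in FL478 salt arrays, against 2608, 3279 and 2559 in FL478 control arrays. The FL478 groups did not overlap, although the second control array came close to the third salt array. The difference was 0.28 (SE 0.20, adjusted p = 0.744). In IR29, PCNA had 3512, 4118 and 2642 under salt, against 2939 and 3961 in control, a difference of -0.02 (SE 0.22). The IR29 arrays of 1 condition thus spread more widely than the conditions differed.

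The 5 H2B histone genes were well detected on every array. Their salt effects were small in both genotypes, between 0.08 and 0.21 in FL478 and between -0.14 and 0.25 in IR29. H2B.6 had 12388, 12374 and 10531 in FL478 salt arrays, against 8966, 11901 and 10448 in FL478 control arrays. In IR29 it had 14344, 16602.5 and 15024 under salt, against 13725 and 11994 in control, groups that did not overlap (0.25, SE 0.18, adjusted p = 0.933). H2B.10, H2B.7, H2B.6 and H2B.5 lie close together on chromosome 1. H2B genes are near-identical in their coding parts, so that their probe sets may share signal and cannot be counted as 5 separate measurements.

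The mitotic class held 3 A-type and 4 B-type cyclin genes and CDKB2-1. All 8 had higher means under salt in FL478, by 0.00 to 0.30 with a median of 0.11. This count includes the dim CYCB1-3, with a mean signal of 45.7, and CYCB2-2, whose estimate was 0.00. In IR29, 7 of the 8 had lower means under salt, with a median of -0.08. No mitotic gene reached an unadjusted p under 0.05 in a salt comparison, and the smallest adjusted p of the class was 0.758 in FL478 and 0.962 in IR29. CYCB1-1, a B-type cyclin of the kind used as a mitosis marker, had 2086, 2739 and 1764 in FL478 salt arrays, against 2250, 2283 and 1863 in FL478 control arrays (0.02, SE 0.23). In IR29 it had 2704, 2640 and 1730 under salt, against 2178 and 2936 in control (-0.13, SE 0.26). Salt and control overlapped in both genotypes. The annotation also gives the synonym CYCB1;1 to another locus, listed here as CYCB1-3, whose mean signal was below the median level. CDKB2-1, the mitotic kinase, differed by 0.13 (SE 0.18) in FL478 and by -0.09 (SE 0.20) in IR29. Its signals were 1247, 1451 and 1094 in FL478 salt arrays, against 1218, 1205 and 1012 in FL478 control arrays. CYCB2-2 differed by 0.00 (SE 0.19) in FL478 and -0.22 (SE 0.21) in IR29, and CYCB2-1 by 0.28 (SE 0.26) and -0.07 (SE 0.29). Another CYCB2-2 probe set, with a mean signal of 554 against 1826, gave -0.13 in FL478 and -0.19 in IR29. The largest FL478 estimate of the class was that of the A-type cyclin CYCA3-2, at 0.30 (SE 0.22), with an IR29 estimate of -0.06 (SE 0.25). Since A-type cyclins act from S phase on, this estimate is not a measure of mitosis alone.

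These opposite directions rested on few arrays. For each gene the deviation of its log2 value from the mean of its group means was taken, and the median over a class gives 1 value per array. For the mitotic genes this value was -0.02, 0.25 and -0.23 in FL478 salt arrays 1 to 3, against -0.07, -0.06 and -0.28 in FL478 control arrays 1 to 3. In IR29 it was 0.21, 0.04 and -0.26 in salt arrays 1 to 3, against -0.03 and 0.33 in control arrays 1 and 2. Each array numbered 3 was the lowest of its group, and this also held for MCM2 to MCM7, where it stood at -0.22 in FL478 salt, -0.22 in FL478 control and -0.24 in IR29 salt. The D-type cyclin and KRP genes had their lowest array at number 3 in all 3 of these groups too. The H2B genes had it in 2 of 3, and all named genes above the median level in 1 of 3, where the deviations of an array stayed between -0.03 and 0.04. IR29 control has no array numbered 3. The labels do not say that a number marks a shared harvest or batch. With the number as a block in the fit, the IR29 mitotic median was 0.02 (5 of 8 genes higher) and the MCM2 to MCM7 median -0.15 (0 of 6 higher), and the FL478 medians were 0.11 and 0.10.

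Without the arrays numbered 3, which leaves 2 per group, the mitotic median was 0.19 in FL478 (7 of 8 genes higher) and 0.01 in IR29 (4 of 8 higher). The MCM2 to MCM7 median was 0.16 in FL478 (6 of 6 higher) and -0.14 in IR29 (0 of 6 higher). With all arrays but the second IR29 control array, the IR29 medians were 0.12 for the mitotic genes (6 of 8 higher) and -0.04 for MCM2 to MCM7 (3 of 6 higher). The size of the lower medians of these classes under salt in IR29 therefore depends largely on that 1 array. Over all single omissions the IR29 median ran from -0.28 to 0.12 for the mitotic genes and from -0.37 to -0.04 for MCM2 to MCM7. With 2 IR29 control arrays it cannot be told which of them is the unusual one. The direction of the mitotic genes in IR29 also depends on the third salt array. For MCM7 the IR29 salt effect stayed between -0.31 and -0.22 when each array was left out in turn.

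The mitotic genes moved together between arrays of the same group. After the group means were taken out, the mean pairwise correlation over the 11 arrays was 0.46 among the 8 mitotic genes, 0.40 among MCM2 to MCM7 and 0.69 among the H2B genes. It was 0.17 among the D-type cyclin and KRP genes, -0.04 among the other CDKs and 0.00 among the named genes above the median level. These pairs share the same arrays, and the H2B probe sets may share signal, so that the values are a description.

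With all arrays, each D-type cyclin and KRP gene had the same direction in both genotypes. Of the 13, 11 had higher log2 means under salt in both genotypes, with medians of 0.24 in FL478 and 0.10 in IR29, and 2 had lower log2 means in both. None was called. Of these 2, CYCD5-2 was level in FL478, where its linear mean was 2256 both under salt and in control. Without the second IR29 control array, 8 of the 13 were higher in IR29, with a median of 0.10. Of the 9 D-type cyclins 5 were then higher in IR29, with a median of 0.01. CYCD3-2 had the largest estimate of the 50 genes in FL478, with signals of 376, 225 and 324 under salt, against 167, 197 and 182 in control. These groups did not overlap, and the difference was 0.64 (SE 0.25, adjusted p = 0.476), a fold of 1.56 on the offset scale. In IR29 its signals were 331, 364 and 182 under salt, against 213 and 215 in control, so that 1 salt array lay below both controls (0.35, SE 0.28, adjusted p = 0.952). Averaged over the genotypes, the CYCD3-2 effect was 0.50 (SE 0.19), with the smallest unadjusted p of the 50 genes and an adjusted p of 0.391.

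CYCD3-1 and CYCD5-1 followed in size. CYCD3-1 had 384, 674 and 337 in FL478 salt arrays, against 320, 355 and 311 in FL478 control arrays, a difference of 0.40 (SE 0.24) in which the second salt array stood apart. CYCD5-1 differed by 0.25 (SE 0.18) in FL478 and 0.34 (SE 0.20) in IR29, where 1484, 1272 and 1095 under salt stood above 999 and 999 in control. CYCD5-2 was level, at -0.00 (SE 0.16) in FL478 and -0.07 (SE 0.18) in IR29. Another CYCD5-2 probe set, with a mean signal of 470 against 2092, gave -0.09 in FL478 and -0.33 in IR29. CYCD4-1 differed by 0.33 (SE 0.21) and 0.06 (SE 0.23). CYCD5-3 differed by -0.06 (SE 0.24) and -0.29 (SE 0.26).

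All 4 KRP genes, the CDK inhibitors, had higher means under salt in both genotypes, by 0.15 to 0.32 in FL478 and 0.05 to 0.30 in IR29. KRP5 had 858, 955 and 971 in FL478 salt arrays, against 720.3, 688 and 809 in FL478 control arrays, which did not overlap (0.32, SE 0.15, adjusted p = 0.577). KRP4 also separated in FL478, with 747, 791 and 769.6 under salt, against 694, 706 and 623 in control, though the difference was only 0.18 (SE 0.23). KRP1 had 1165, 1568 and 909.5 in FL478 salt arrays, against 1004, 986 and 962 in FL478 control arrays, groups that overlapped. Another, dim KRP4 probe set gave -0.45 in FL478 and -0.31 in IR29.

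Of the other CDKs, 5 of 10 had higher means under salt in each genotype, and the medians were 0.01 in FL478 and -0.04 in IR29. CDKA-1, the kinase partner of the D-type cyclins, had 2522, 2590.5 and 2171 in FL478 salt arrays, against 1898, 2031 and 1932 in FL478 control arrays. The FL478 groups did not overlap, with a difference of 0.31 (SE 0.15, adjusted p = 0.586). In IR29 CDKA-1 had 2284, 2447 and 1945 under salt, against 2491 and 2381 in control (-0.13, SE 0.16). Another, dim CDKA-1 probe set gave -0.40 in FL478 and 0.04 in IR29. CDKG-1, whose Arabidopsis relatives act in splicing, had the largest negative average among the probe sets used, at -0.30 (SE 0.17, adjusted p = 0.609). Its signals were 989.8, 636 and 859 in FL478 salt arrays, against 1269.6, 955 and 1056 in FL478 control arrays. Another, dimmer CDKG-1 probe set gave -0.01 in FL478 and 0.23 in IR29. For CDKE-1 the probe set used gave 0.10 in FL478 and 0.06 in IR29. Another CDKE-1 probe set, with a mean signal of 580 against 1424, gave -0.81 and -0.91 and was not called.

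In FL478 the arrays of salt and control did not overlap for 7 of the 50 genes (14.0%), beside 14.0% of all probe sets. All 7 were higher under salt, namely MCM7, ORC3, PCNA, CYCD3-2, KRP4, KRP5 and CDKA-1, beside 7.07% of all probe sets in that direction, and 0 were lower, beside 6.95%. Among the 15177 named genes above the median level, where nearly all of the 50 lie, 20.9% did not overlap, with 1889 higher and 1276 lower. In IR29 the groups did not overlap for 7 of the 50 (14.0%), 4 higher and 3 lower, beside 21.4% of all, with 10.5% higher and 10.9% lower. The share of the named genes above the median level was 23.0% in IR29, with 2009 higher and 1479 lower. No gene had all salt arrays above control in both genotypes, beside 1.63% of all probe sets.

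More probe sets were called between the genotypes than for salt. None of the 50 genes was, and shares as low as those that follow leave room for few calls or none among 50 genes. FL478 against IR29 under salt called 0 of 50, beside 1.75% of all probe sets, and in control 0 of 50, beside 0.597%. At an unadjusted p under 0.05, 5 genes passed under salt and 3 in control, beside 11.2% and 7.92% of all probe sets. In control, 40 of the 50 genes had a lower mean in FL478 than in IR29, with a median difference of -0.23, beside 9525 of all 17905 named genes and their median of -0.02. Without the second IR29 control array, 39 of the 50 were lower, with a median of -0.11. Under salt, 29 of the 50 were lower in FL478, with a median of -0.04, beside 9397 of all named genes, and without the third IR29 salt array 38 were lower, with a median of -0.12. In these comparisons a difference in transcript level and a difference in sequence under a probe cannot be told apart.

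In control, the arrays of FL478 and IR29 did not overlap for 20 of the 50 genes (40.0%), beside 23.9% of all probe sets. Of these, 16 were lower in FL478, beside 12.5% of all probe sets in that direction, and 4 were higher, beside 11.3%. Among the 15177 named genes above the median level, 26.9% did not overlap, with 2236 lower and 1848 higher. ORC3 had the smallest unadjusted p, with 113, 124 and 96.6 in FL478 control arrays, against 212 and 202 in IR29 control arrays (-0.74, SE 0.21, adjusted p = 0.28). MCM7 differed by -0.57 (SE 0.19, adjusted p = 0.398), from the same control arrays as in the salt comparisons. All 8 mitotic genes had lower means in FL478 control, with a median of -0.31. Against the first IR29 control array alone the median was -0.10, with 7 of 8 lower.

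Under salt, 8 genes did not overlap between FL478 and IR29, beside 15.6% of all probe sets. Of these, 6 were lower in FL478, beside 7.71% of all probe sets, and 2 were higher, namely CDKA-2 and CDKF-4, beside 7.86%. Among the 15177 named genes above the median level, 21.6% did not overlap, with 1620 lower and 1653 higher. Other CDKA-2 probe sets differed by 0.12 and -0.47 under salt, so that the probe sets disagree on CDKA-2. ORC5 had 326, 272 and 156 in FL478 salt arrays, against 113.5, 184 and 115 in IR29 salt arrays, which overlapped (0.71, SE 0.25, adjusted p = 0.288). CYCD5-1 had 988, 965 and 701 in FL478 salt arrays, against 1484, 1272 and 1095 in IR29 salt arrays, which did not overlap (-0.53, SE 0.18, adjusted p = 0.275). MCM6 was higher in FL478 by 0.45 (SE 0.19, adjusted p = 0.401). CYCA1-4, an A-type cyclin, had 160.0, 129 and 67.8 in FL478 salt arrays, against 301, 136 and 341 in IR29 salt arrays (-0.92, SE 0.38, adjusted p = 0.388), groups that overlapped.

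All 5 H2B genes had lower means in FL478 under salt, with a median of -0.24, and in control, with a median of -0.33, and none was called. For H2B.5, H2B.6 and H2B.7 every FL478 array lay below every IR29 array in both conditions, as it did for CYCD5-1 and CDKE-1, 5 of 50 genes beside 2.46% of all probe sets. Of these 5, 3 are H2B genes whose probe sets may share signal. H2B.7 had 9325, 10936 and 7329.5 in FL478 salt arrays, against 11417, 11794 and 11129 in IR29 salt arrays. In control it had 6168, 9735.5 and 8353 in FL478, against 12341 and 12846 in IR29 (-0.66, SE 0.23, adjusted p = 0.428). H2B.6 differed by -0.38 (SE 0.16, adjusted p = 0.401) under salt and -0.31 (SE 0.18, adjusted p = 0.757) in control. Another CDKE-1 probe set differed in the opposite direction, by 0.78 under salt and 0.68 in control. CDKF-4 was the single gene with every FL478 array above every IR29 array in both conditions, beside 2.45% of all probe sets. Another CDKF-4 probe set, with a mean signal of 2074 against 4230, differed by 0.27 under salt and -0.07 in control.

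The 3 cellulose synthase genes of the secondary wall, which mark maturing xylem, were compared between the genotypes. CESA4, CESA7 and CESA9 had higher means in FL478 under salt (0.43, 0.21 and 0.30) and in control (0.46, 0.10 and 0.68), and none was called. Their summed signal ranged from 12436 to 16253 in FL478 salt arrays, against 9799 to 13459 in IR29 salt arrays, and from 10462 to 12579 in FL478 control arrays, against 8318 to 11036 in IR29 control arrays. What part the amount of maturing tissue has in the differences between the genotypes was not tested. The root meristem and quiescent centre genes QHB, OsSHR1 and OsSCR1 differed between the genotypes by -0.08, -0.20 and -0.15 under salt and by 0.05, -0.11 and 0.13 in control, and none was called.

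**Figure D3:**
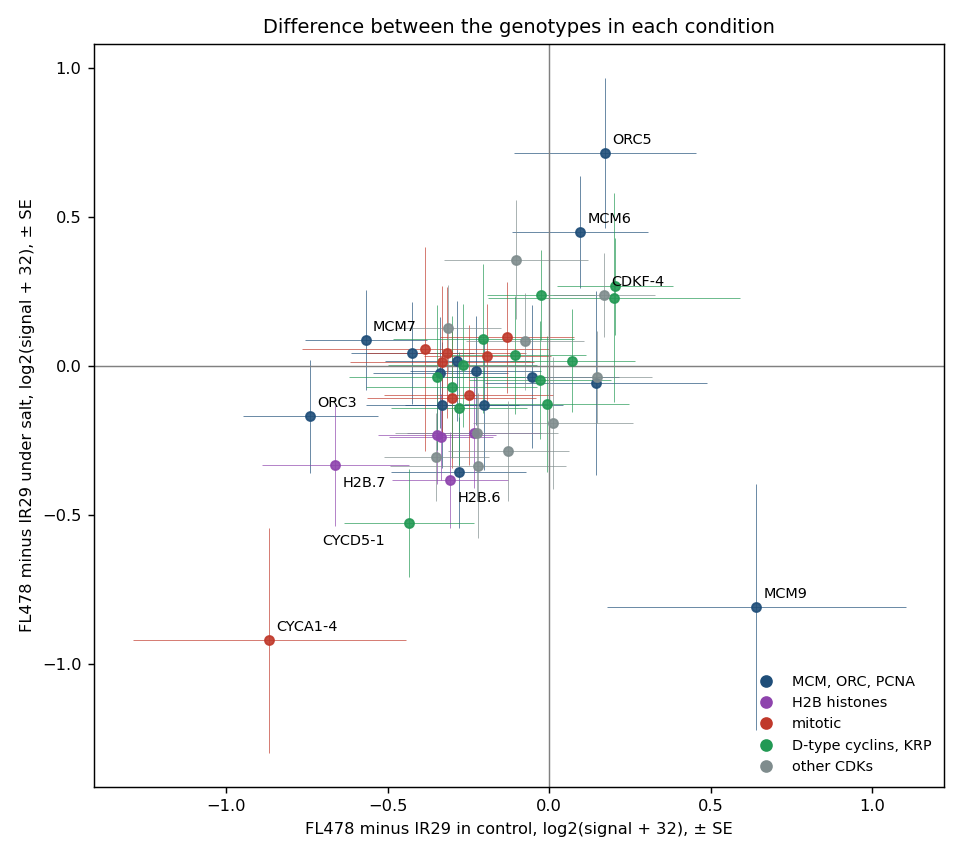
FL478 minus IR29 on the scale of log2(signal + 32), in control on the horizontal axis and under salt on the vertical axis, for the 50 genes with their SE. Most points lie left of 0 (40 of 50), and the 5 H2B genes lie below 0 on both axes. No difference was called.

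**Figure D4:**
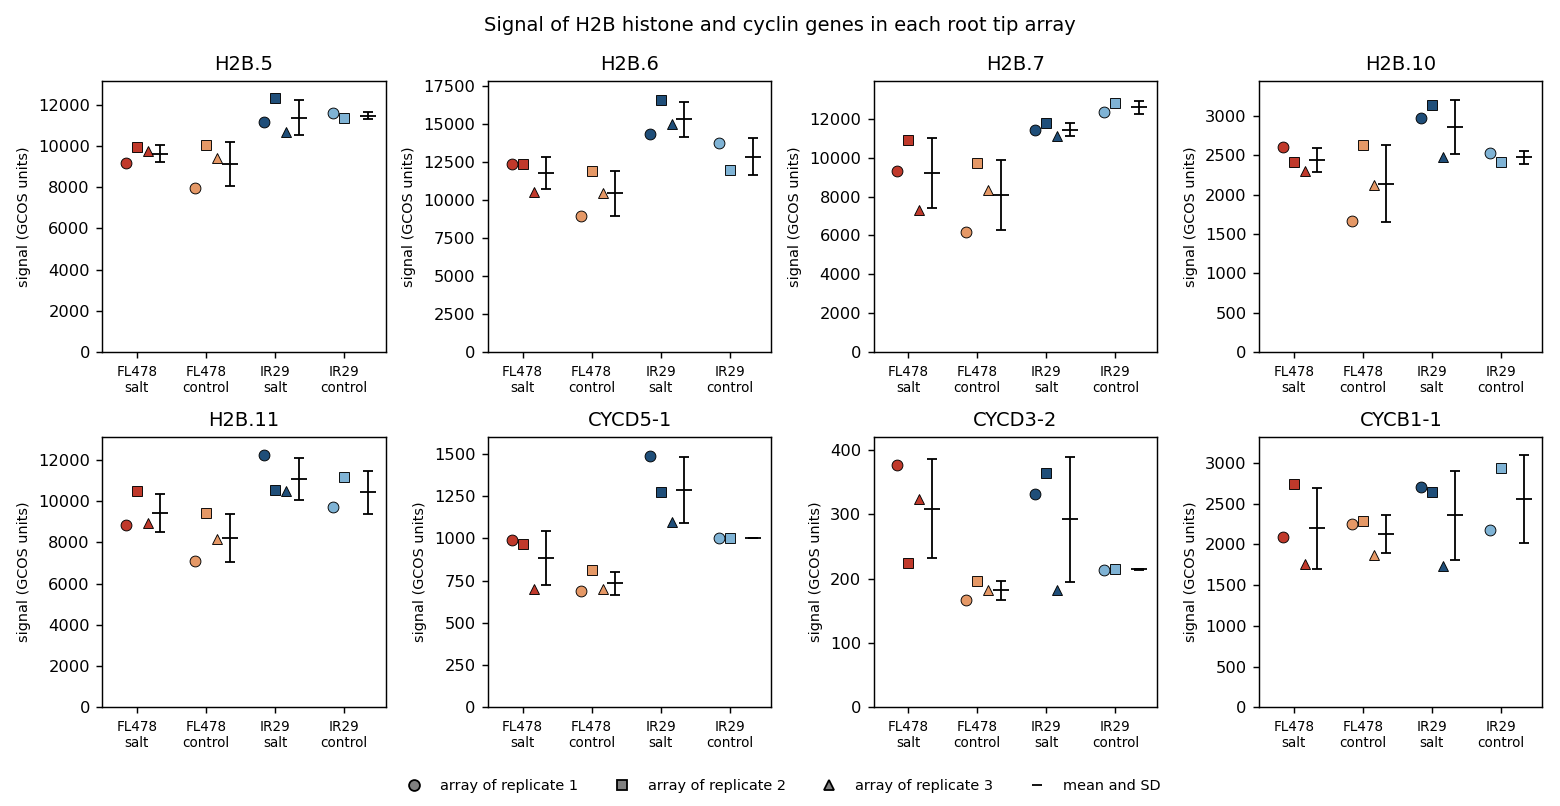
Linear signal of the 5 H2B genes, CYCD5-1, CYCD3-2 and CYCB1-1 on each array, by group, with the mean and SD of the group at its right. For H2B.5, H2B.6, H2B.7 and CYCD5-1 all FL478 arrays lie below the IR29 arrays of the same condition. For CYCD3-2 the FL478 salt arrays lie above FL478 control, and for CYCB1-1 all groups overlap.

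Other genes of the same pathways, taken by a separate list of names, were looked at in the same fit. Of 19 replication fork genes (replication protein A, replication factor C, polymerase delta, flap endonuclease and topoisomerase VI genes), 0 were called in any of these comparisons. For salt, 12 of the 19 had higher means in each genotype, with medians of 0.07 in FL478 and 0.01 in IR29. The 7 genes of replication protein A, which coats single-stranded DNA, all had higher means under salt in FL478 (median 0.13), and 3 of 7 in IR29 (median -0.11). The 7 include OsRPA32-3, whose mean signal of 42.4 was below the median level. Of the 5 genes of replication factor C, 3 were higher in FL478 and 4 in IR29. OsRPA70b had 1257, 1405 and 1377 in FL478 salt arrays, against 947, 1065 and 1012 in FL478 control arrays, which did not overlap. The OsRPA70b effect in FL478 was 0.41 (SE 0.15, adjusted p = 0.449) and that in IR29 was -0.25 (SE 0.17, adjusted p = 0.924), and their difference was 0.66 (SE 0.23, adjusted p = 1.0).

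Of 5 further genes, of mitosis (NACK, MYB3R-2 and CenH3) and of the start of the cycle (OsRBR1 and OsRBR2), 0 were called. MYB3R-2 encodes a Myb factor of the family that activates B-type cyclin genes in plants. It had 1243, 997 and 908 in FL478 salt arrays, against 1403, 1199 and 1339 in FL478 control arrays. In IR29 it had 1264, 896 and 1281 under salt, against 1451 and 1475 in control. Its average effect was -0.34 (SE 0.14, adjusted p = 0.429). OsRBR1, a retinoblastoma-related gene, was lower in FL478 than in IR29 in control, by -0.66 (SE 0.25, adjusted p = 0.517).

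RNA quality moved with salt. The log2 ratio of the GAPDH control probe sets at the 3′ and 5′ ends, which rises with degradation, was 0.77 ± 0.14 in FL478 salt arrays and 0.58 ± 0.060 in FL478 control arrays (SD, n = 3 each). It was 0.88 ± 0.16 in IR29 salt arrays (SD, n = 3) and 0.65 ± 0.0086 in IR29 control arrays (SD, n = 2). Its part in the salt effects was not tested.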

How the data were processed

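RNA from rice root tips was measured on 11 Affymetrix Rice Genome Arrays. The authors deposited linear intensities from GCOS (no version given), scaled to a common 2% trimmed mean, with no detection calls. The authors ran their own tests on other values, which were not used here. Of 57381 probe sets, 123 controls were left out and 57258 tested, of which 22436 have 1 gene in the annotation. On an array, 36.6% to 41.9% of probe sets had signals under 32, where changes are poorly measured, and the number of arrays limits precision. Values were taken as log2(signal + 32) and fitted with limma 3.58.1 in R 4.3.3, with 1 mean per group over all 11 arrays (7 residual and 3.0 prior degrees of freedom). The moderated p-values were adjusted by Benjamini-Hochberg and called under 0.10. Named genes are the brightest, the largest changes and the best known of each class, with the smallest p-values between genotypes. Members, lists and tests were chosen with earlier results of these data known. Classes are described by counts and medians without a test. Names come from platform annotation and RefSeq synonyms (assembly ASM3414082v1). Promoter and protein sequences were not analysed here. The alternatives were other offsets, a floor, quantile normalization, a level filter, a variance trend, a replicate block, each genotype fitted alone, the mean of all probe sets of a gene, a threshold of 0.05 and leaving out each array. The fit was tested on simulated data. Python 3.11.15, pandas 2.3.3, numpy 2.4.6 and matplotlib 3.10.9 were used.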

Additional observations from a re-analysis of the deposited data

Results flagged for a closer look

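MCM7 was picked out because its salt arrays were all above control in FL478 and all below it in IR29. The difference of the salt effect, FL478 minus IR29, was 0.66 on the log2 scale (SE 0.25), and its test did not pass the adjustment over all probe sets in limma (adjusted p = 1.0). OsRFC5, a subunit of the clamp loader replication factor C, was picked out for the opposite pattern. Its signals were 494.5, 539.9 and 496.0 in FL478 salt arrays, against 587.5, 585.9 and 616.9 in FL478 control arrays. In IR29 they were 658.8, 578.6 and 656.7 under salt, against 548.6 and 577.6 in control. The difference of its salt effect was -0.37 (SE 0.20, adjusted p = 1.0). Of all probe sets, 0.702% separated in opposite directions in the genotypes.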

How the results depend on the processing

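Under every alternative listed with the methods, where it applies, 0 of the 50 genes were called in the 6 comparisons. In many of these settings few or no probe sets at all were called for salt, and there the 0 says nothing about the 50 genes. Leaving out each array in turn gave 0 to 0 calls in each, and FL478 against IR29 averaged over control and salt gave 0 to 1. That average, added after seeing the data, called 0 genes, beside 3.34% of all probe sets, and 10 genes reached an unadjusted p under 0.05, beside 7468 of all 57258 probe sets. It called 3 genes with only probe sets above the median level (beside 2489 of 28628 probe sets), 3 with a variance trend and robust fit (beside 2284 of 57258), 1 with a floor of 32 (beside 1845), 1 with an offset of 64 (beside 2256) and 1 without the second IR29 salt array (beside 2342). Leaving out each array, the mitotic median ranged from 0.03 to 0.26 in FL478 and from -0.28 to 0.12 in IR29, and the replication median from 0.10 to 0.31 and from -0.15 to 0.02. The 15 correlations between the deviations of same-numbered arrays ran from -0.14 to 0.34 (median 0.13), and the 30 of differently numbered arrays from -0.40 to 0.23 (median -0.08). Over all groups the numbers did not meet the rule for pairs (every correlation over 0.1), but the salt and control arrays of FL478 did (0.13 to 0.33). With the replicate block, 0 of the 50 genes were called, while the FL478 salt effect called 127 of all probe sets against 97 without it, and the mitotic median was 0.11 in FL478 and 0.02 in IR29. Using the arrays numbered 1 and 2 only, chosen after seeing the data, no salt comparison called any of the 57258 probe sets, so that its 0 calls say nothing about these genes. Of the estimates for single genes over all alternatives, 4334 stayed within the spread between replicates of the main value and 58 moved by more. Many of these could not move. Leaving out an array of 1 genotype leaves the salt effect of the other as it is, and a variance trend or a level filter changes no estimate. The 2 counts therefore do not measure how stable the estimates were. Effects under 1.5-fold and dim genes such as MCM8 were not resolved with 2 IR29 control arrays. Nor was the sign of the IR29 effects of the mitotic, MCM and D-type cyclin genes.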
